A study of Caenorhabditis elegans with 2 samples.

Results

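The autosomal intronic summits of an eGFP-CEH-28 ChIP-seq experiment in Caenorhabditis elegans that lie away from gene starts numbered 598 of 1739 summits (34.4%) in the reproducible peak list. A summit is the position of highest signal in a called region, and the 598 summits lay in 553 regions. They were chosen by position alone. Each lay on an autosome, inside the body of a protein-coding gene, in no exon of a protein-coding gene, and outside every window from 1000 bp upstream to 500 bp downstream of a protein-coding gene start. The promoter class takes in any summit inside such a window, exonic or intronic. The rest of the list held 195 autosomal distal intergenic summits, 560 autosomal promoter summits, 191 autosomal exonic summits and 195 summits on X. Chromatin came from whole larvae of both sexes at the L4 stage, of strain OP241, which carries the unc-119(ed3) allele on chromosome III and the wgIs241 insertion for ceh-28. There were 2 biological replicates of 1 group, and both were tied to the same control. Whole larvae were sampled, so the cells that gave a signal cannot be told apart, and no untagged strain was analysed here.

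CEH-28 belongs to the NK-2 class of homeodomain proteins and is best known from the M4 motor neuron of the pharynx. Homeodomain proteins bind short DNA sequences, and introns can hold enhancers, repeats and small genes as well as the signals for splicing. In ChIP-seq, DNA fragments bound to the tagged protein are sequenced, and regions where fragments pile up above a control are called as peaks. Each peak carries a signal value from the authors' caller, on a scale that is not stated, so signals were compared within a list and not read as amounts. The list held the regions that passed an irreproducible discovery rate threshold, a measure of whether peaks rank alike between replicates. It did not require a region in both replicates' own lists, since the replicate 2 list held one at 594 of the 598 intronic summits.

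The sequence that recurred at these summits was ATCGAT, which reads the same on both strands and is called a site below. Windows of 201 bp centred on 8 summits show how sites were arranged, given 5′ to 3′ on the forward strand of ce11 (RefSeq sequence of the same assembly) with each site in capitals. The first 6 are in the genes that held the highest intronic signals on chromosomes II to V, smi-1 had 9 sites, and egrh-3 had the highest signal of an intronic summit with 0 sites.
Y22D7AL.7 (chrIII:1580237-1580437): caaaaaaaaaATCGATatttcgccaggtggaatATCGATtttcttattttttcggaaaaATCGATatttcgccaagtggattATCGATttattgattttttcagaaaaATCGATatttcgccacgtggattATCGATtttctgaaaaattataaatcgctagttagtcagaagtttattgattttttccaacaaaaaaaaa
mac-1 (chrII:13316265-13316465): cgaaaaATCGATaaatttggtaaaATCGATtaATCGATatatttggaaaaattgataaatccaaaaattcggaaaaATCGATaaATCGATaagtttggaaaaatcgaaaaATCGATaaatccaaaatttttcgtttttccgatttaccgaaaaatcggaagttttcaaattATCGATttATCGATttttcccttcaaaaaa
Y48G9A.11 (chrIII:2112693-2112893): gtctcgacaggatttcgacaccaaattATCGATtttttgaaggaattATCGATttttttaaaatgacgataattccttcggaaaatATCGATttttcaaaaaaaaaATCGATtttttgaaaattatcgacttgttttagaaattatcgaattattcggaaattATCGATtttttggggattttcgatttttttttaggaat
Y55F3AM.5 (chrIV:999775-999975): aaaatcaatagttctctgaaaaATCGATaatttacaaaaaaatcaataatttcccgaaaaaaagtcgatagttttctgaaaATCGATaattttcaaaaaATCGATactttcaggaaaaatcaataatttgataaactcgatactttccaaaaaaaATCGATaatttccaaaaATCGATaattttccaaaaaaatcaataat
Y66A7A.4 (chrIII:11614397-11614597): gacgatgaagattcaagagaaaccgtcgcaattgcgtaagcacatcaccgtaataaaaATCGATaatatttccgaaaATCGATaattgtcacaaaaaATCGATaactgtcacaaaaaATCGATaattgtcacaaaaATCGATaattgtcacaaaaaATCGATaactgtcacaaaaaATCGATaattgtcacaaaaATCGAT
wht-8 (chrIII:11221812-11222012): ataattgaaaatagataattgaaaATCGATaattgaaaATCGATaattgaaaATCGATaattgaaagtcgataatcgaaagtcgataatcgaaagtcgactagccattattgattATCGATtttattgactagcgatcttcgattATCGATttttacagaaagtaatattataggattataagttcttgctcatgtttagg
smi-1 (chrIII:1878986-1879186): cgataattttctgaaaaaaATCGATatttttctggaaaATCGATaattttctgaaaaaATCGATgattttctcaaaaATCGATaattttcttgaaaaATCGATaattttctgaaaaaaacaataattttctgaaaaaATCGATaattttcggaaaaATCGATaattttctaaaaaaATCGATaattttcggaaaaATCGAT
egrh-3 (chrIV:2680370-2680570): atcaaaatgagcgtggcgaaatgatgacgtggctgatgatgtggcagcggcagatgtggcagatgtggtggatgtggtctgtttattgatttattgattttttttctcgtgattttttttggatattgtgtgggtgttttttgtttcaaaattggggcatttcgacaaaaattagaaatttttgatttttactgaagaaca

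In Y66A7A.4 and smi-1 the sites formed an evenly spaced array. Neighbouring sites started 19 or 20 bp apart in the Y66A7A.4 window, and so did those of smi-1 apart from 1 gap of 40 bp. The Y22D7AL.7 window alternated between gaps of 23 and 26 bp. In mac-1, sites stood 8 bp apart in 3 places. The egrh-3 window held no site but carried the near match ATCAAT, read on the other strand. The windows of these 8 summits lay in introns, apart from 35 exonic bases at the start of the Y66A7A.4 window.

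The highest intronic signal was in the last of 5 introns of Y22D7AL.7 on chromosome III, 200 bp before the acceptor splice site and 3586 bp downstream of the gene start. The summit had a pooled signal of 2314, with 1728 in replicate 1 and 604 in replicate 2. The next was in intron 3 of mac-1, which encodes an AAA-family ATPase, at a pooled signal of 1878, with 1370 in replicate 1 and 523 in replicate 2. These summits stood well above the rest, since the next highest, in Y48G9A.11 and in the UDP-glucuronosyltransferase gene ugt-31, had pooled signals of 832 and 828. Replicate signals are those of the highest overlapping region in each replicate's own list, so 84 summits that share a region with another can share a replicate value. Summits in neighbouring regions can share a value too. A second mac-1 summit with a pooled signal of 190 carries the same 1370 and 523.

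The other hosts of the 20 highest summits included genes of muscle structure, the synapse and RNA decay. The dystrophin gene dys-1 had its highest summit in intron 36 of 46, at a pooled signal of 644, with 497 in replicate 1 and 141 in replicate 2, and with 6 sites. The RIM-binding protein gene rimb-1 held 2 of the 20 highest, at 609 and 537, in 1 intron of 694 bp. The nonsense-mediated decay gene smg-6 had 595, Y22D7AL.9 had 591, and Y18H1A.11 had 545 with 1 site. The ABC transporter gene wht-8 had 666, Y55F3AM.5 had 756, and Y66A7A.4 had 751 and 623 in neighbouring introns. The last of the 20 were in the ciliary gene dyf-19 (525), the endonuclease gene eme-1 (512), W10C4.1 (501), the sphingomyelin synthase gene sms-3 (498), ugt-31 again (493) and mboa-6 (492). Each of these 20 summits had a higher value in replicate 1 than in replicate 2.

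Across the 598 summits the pooled signal had a median of 111, with the middle 50% between 72.8 and 184, and ran from 56.5 to 2314. The replicate 1 list held a region at 598 of them, with a median of 94.3, and the replicate 2 list held one at 594, with a median of 33.1. Replicate 1 was higher at 591 of these 594, with a median ratio of 2.70 on an unstated scale. The order was nevertheless similar, with a Spearman correlation of 0.838 and, for log10 values, a Pearson correlation of 0.858, across 594 summits that share both libraries and are not independent replicates. Among intronic summits the thresholded list was also a cut on pooled signal, with 56.5 the lowest kept and 56.4 the highest left out. The part of this selection in the similarity was not tested.

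**Figure D1:**
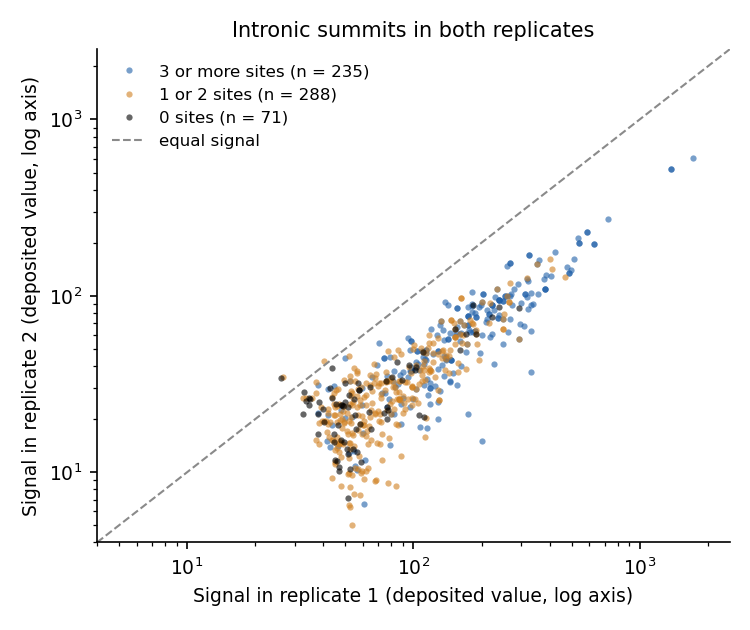
Signal of each intronic summit in replicate 1 (horizontal, deposited value, log axis) and in replicate 2 (vertical, deposited value, log axis), 1 point per summit with a region in both lists, coloured by the number of sites within 100 bp. Nearly all of the 594 points lie below the dashed line of equal signal, and those with 3 or more sites reach furthest to the upper right.

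Intronic summits had a site within 100 bp more often than distal intergenic and promoter summits of the autosomes. A site was present at 527 of 598 intronic summits (88.1%, 95% Wilson interval 85.3 to 90.5). It was present at 136 of 195 distal intergenic summits (69.7%) and at 402 of 560 promoter summits (71.8%). The difference was 18.4 percentage points from distal intergenic summits (interval 11.7 to 25.6, Fisher's exact test, two-sided, adjusted p = 1.99e-08). It was 16.3 points from promoter summits (interval 11.8 to 20.9, Fisher's exact adjusted p = 6.39e-12). The tests take summits as independent, although they are not replicates and some share a region, and p-values were adjusted over 8 comparisons by the Benjamini-Hochberg method. The intronic share was above both others on each of the 5 autosomes, at 81.6 to 93.7% against 65.8 to 77.8% for distal intergenic and 65.5 to 80.2% for promoter summits. Autosomal exonic summits, at 86.9%, and the 132 intronic summits inside promoter windows, at 85.6%, had shares close to that of the intronic summits.

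Base composition moved with this difference. Windows at intronic summits had a median G+C content of 30.3%, against 40.8% for distal intergenic and 38.3% for promoter summits. Among windows under 30% G+C, 94.9% of 293 intronic summits had a site, against 89.8% of 49 distal intergenic and 87.4% of 111 promoter summits. Between 30 and 40% G+C the shares were 91.5% of 200, against 79.1% of 43 and 79.5% of 219. At 40% or more they were 62.9% of 105, against 56.3% of 103 and 57.0% of 230. The direction was the same in each range and the gaps were smaller than over all windows, and the part of base composition in the result was not tested. Bases marked as repeats in lower case in the reference made up a median of 71.4% of an intronic summit window, against 27.9% and 34.3% in the other classes.

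The sites were concentrated at the summits. In windows 1000 bp to the right, 26.4% of intronic summits had a site (exact McNemar test, two-sided, p = 3.17e-98), and 25.4% did to the left (exact McNemar p = 5.7e-101). A site was found only at the summit in 379 pairs of windows and only to the right in 10. ATCGAT was chosen with earlier results of these data known, so these p-values are descriptions and not an independent test. The same windows to the right of distal intergenic and promoter summits held a site in 13.3% and 14.1% of cases. The nearest site stood at a median of 12 bp from the summit among the 553 intronic summits with a site within 500 bp, and 69.7% of all 598 had one within 25 bp. The NK-2 class sequences TCAAGTG and TTAAGTG, searched on both strands, were at 1.84% of intronic summits, 2.05% of distal intergenic and 3.39% of promoter summits, and at 3.34% and 2.68% of the windows to the right and left of intronic summits.

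**Figure D2:**
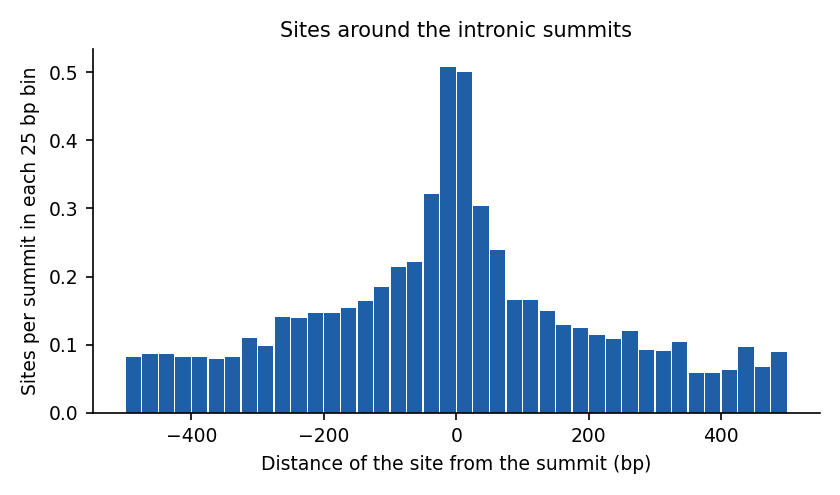
Sites per intronic summit in bins of 25 bp (vertical) by distance from the summit (horizontal, bp, 598 summits). The bins on either side of the summit hold 0.508 and 0.500 sites per summit, against 0.0819 in the bin 476 to 500 bp to the left.

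Sites came in groups at intronic summits. At least 3 sites were within 100 bp of 39.5% of intronic summits, against 15.9% of distal intergenic and 13.4% of promoter summits. The intronic share depended on the window, at 22.1% within 50 bp and 52.8% within 200 bp, and was 54.1% within 100 bp in the upper 50% of the list. The signal was higher where there were more sites. Its median was 70.9 with 0 sites, 90.8 with 1, 89.9 with 2, 145 with 3, 184 with 4, 167 with 5, 291 with 6 and 312 with 7 or more. The steps between 1 and 2 sites and between 4 and 5 did not rise. Replicate medians followed the same broad course, with 52.6 in replicate 1 and 24.1 in replicate 2 at 0 sites, and 240 and 88.4 at 7 or more. The Spearman correlation between the number of sites and the signal was 0.494 across the 598 summits, as a description.

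**Figure D3:**
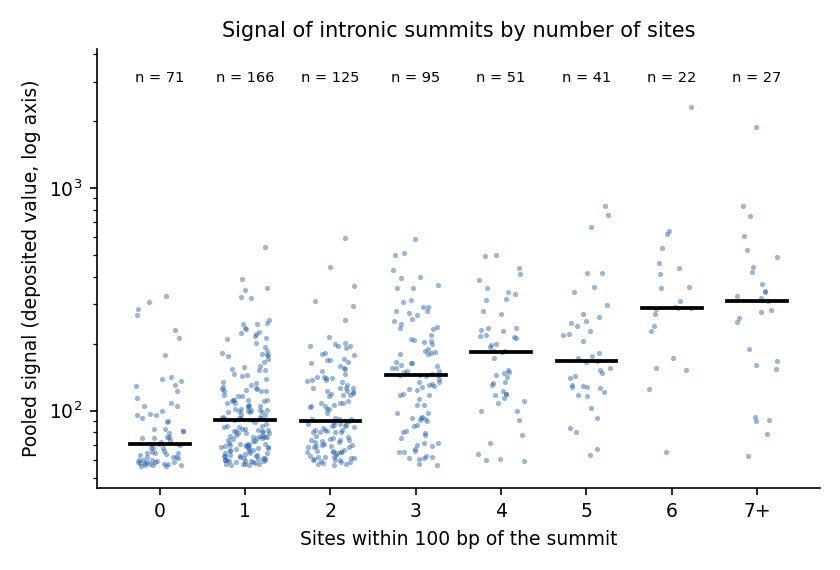
Pooled signal (vertical, deposited value, log axis) of each intronic summit by the number of sites within 100 bp (horizontal), with bars at the medians. Medians run from 70.9 at 0 sites to 312 at 7 or more, and single summits with 1 or 2 sites reach 545 and 595.

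Repeated sequence can be hard to place reads on, so 31-base words that occur once in the nuclear genome were counted. More than 90% of such words were unique in 499 of 598 intronic windows (83.4%), against 93.8% of distal intergenic and 95.5% of promoter windows. Among these 499 the median signal was also higher with more sites, at 70.2 with 0 sites, 86.9 with 1, 89.7 with 2, 144 with 3 and 229 with 4 or more, which were pooled. In the same unique windows a site was at 87.6% of intronic, 67.8% of distal intergenic and 71.2% of promoter summits.

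The number of sites also separated the reproducible summits from weaker ones in the same kind of sequence. The pooled list before thresholding held 4827 intronic summits away from gene starts, and the 4229 that did not pass had signals up to 56.4. Of these weaker summits 30.5% had a site. Among all 4827, the reproducible ones made up 2.36% of those with 0 sites, 13.9% with 1, 37.3% with 2, 77.2% with 3 and 92.5% of the 53 with 6 or more. The thresholded list is by construction the upper end of pooled signal, so this restates the relation of sites to signal over a wider range.

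Intronic summits were also higher than other summits. Of the 598, 369 (61.7%) lay above the median signal of the list, 89.8, against 98 of 195 distal intergenic summits (50.3%, difference 11.4 points, interval 3.46 to 19.4, Fisher's exact adjusted p = 0.00644). Against promoter summits, of which 229 of 560 (40.9%) lay above it, the difference was 20.8 points (interval 15.1 to 26.3, Fisher's exact adjusted p = 5.74e-12). Median signals were 111 at intronic, 90.6 at distal intergenic and 81.7 at promoter summits, and the intronic median was the highest of the 3 on each autosome. Within G+C ranges the medians were 138, 134 and 110 under 30%, 105, 72.3 and 76.5 between 30 and 40%, and 80.6, 86.1 and 80.7 at 40% or more, in the order intronic, distal intergenic and promoter. The intronic median was thus not above that of distal intergenic summits in the windows richest in G+C. With only the upper 50% of the list, and the median taken anew within it, the difference from distal intergenic summits was 6.43 points (Fisher's exact adjusted p = 0.305). With a wider promoter window, 2000 bp upstream to 1000 bp downstream, and the median of the full list, the difference was 7.86 points (Fisher's exact adjusted p = 0.144).

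A summit was called high in both replicates where its region overlapped, by at least 1 bp, a region of the 1739 highest summits in each replicate's own list. This held for 472 of 598 intronic summits (78.9%) and 377 of 560 promoter summits (67.3%), a difference of 11.6 points (interval 6.51 to 16.6, Fisher's exact adjusted p = 1.1e-05). Against 142 of 195 distal intergenic summits (72.8%) the difference of 6.11 points did not pass the test (interval -0.603 to 13.4, Fisher's exact adjusted p = 0.0932). Nor did it pass with a wider promoter window, with exons of all genes left out, with 1 summit per region, with summits within 100 bp in place of overlap, or with at least 50% of the shorter region covered (4.28 to 6.20 points, Fisher's exact adjusted p from 0.0837 to 0.250). It passed with the upper 50% of the list (3.75 points, Fisher's exact adjusted p = 0.0431). With the highest summits of 1 replicate in place of the list, each summit is high in that replicate by construction and the measure reads the other replicate alone. The difference was then 9.40 points for the summits of replicate 1 (Fisher's exact adjusted p = 0.00745) and 12.9 points for those of replicate 2 (Fisher's exact adjusted p = 0.000195). The share was higher with more sites, at 62.0% of intronic summits with 0 sites, 70.5% with 1, 87.4% with 3 and 100% of the 27 with 7 or more.

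The bases around the site differed between copies at summits and other intronic copies. The longer form AATCGATA, on either strand, made up 85.9% of 1457 sites within 100 bp of an intronic summit, against 41.3% of 8177 other sites in intronic sequence away from gene starts. The palindrome AATCGATT made up 7.41% of sites at summits against 21.4% of others, and TATCGATA 0.618% against 4.26%. With 2 bases on each side, AAATCGATAA alone was 66.7% of sites at summits, against 22.7% of others. Distal intergenic and promoter copies were not set against these, so the preference is not shown to differ by place.

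Clusters with more sites carried a summit more often, and most clusters of 3 or more sites did. Sites no more than 60 bp apart were joined, which gave 7757 clusters in intronic sequence away from gene starts. A reproducible intronic summit lay in or within 100 bp of 4.16% of 6975 single sites, 32.2% of 494 clusters of 2 and 61.7% of 133 clusters of 3. The shares were 64.7% of 51 clusters of 4, 87.0% of 23 clusters of 5 and 77.8% of 81 clusters of 6 or more. Single sites and pairs differed by form. A single site had a summit in 9.04% of 2644 cases as AATCGATA, against 1.18% of 4331 in other forms. For pairs the shares were 53.0% of 215 where both were AATCGATA, against 3.20% of 125 where neither was.

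**Figure D4:**
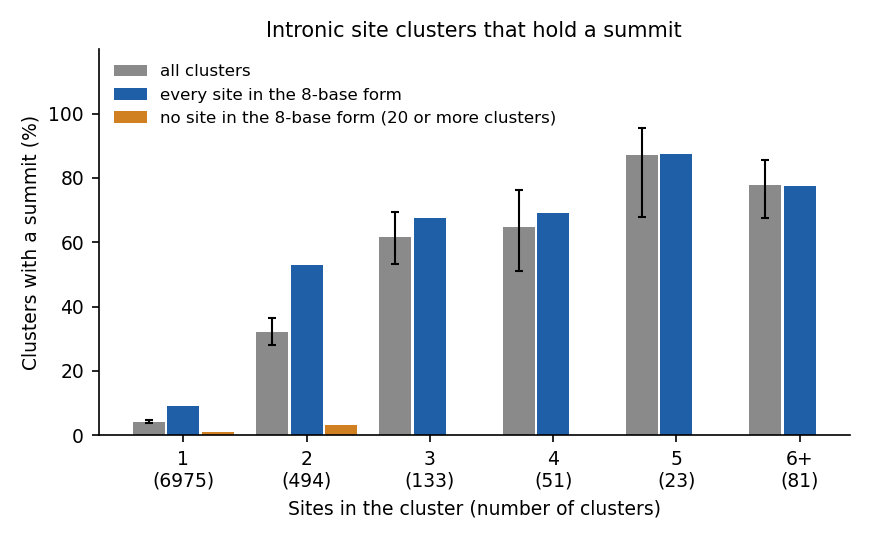
Percent of intronic site clusters with a reproducible intronic summit in or within 100 bp (vertical) by the number of sites in the cluster (horizontal, number of clusters in brackets). Shares are given for all clusters, with 95% Wilson intervals, and for clusters in which every site has the longer 8-base form. Where there are 20 or more, they are also given for clusters in which none has. The share is 4.16% for single sites and 61.7% or more from 3 sites on.

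Some large arrays had no reproducible intronic summit in or within 100 bp of them. The largest were 53 sites over 1690 bp in fnip-2 on chromosome IV, 40 sites over 865 bp in pro-3 on chromosome V, and 25 and 15 sites in Y65B4A.2 on chromosome I. Of their 31-base words, 21.0%, 13.1%, 1.89% and 0% were unique in the genome. Over the 39 clusters of 4 or more sites without a summit a median of 83.6% of words were unique, against 99.2% in the 116 with one. The part of read placement in the missing summits was not tested. Summits in exons and promoter windows were not counted, and a summit could lie just beyond the limit. One of Y65B4A.2 (signal 129) did so beside the array of 15 sites. Some of the 39 clusters lay inside the called region of a summit further off, such as 6 sites in tat-1. Such clusters are thus not shown to lack signal. The gene pro-3 held 5 reproducible summits outside its array, and an unthresholded summit was called at the arrays of fnip-2 and pro-3 but not at those of Y65B4A.2.

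Neighbouring sites within an array had a preferred distance. Of 927 neighbouring pairs at intronic summits, 31.8% started 18 to 21 bp apart, with 11.3% at 19 bp and 12.3% at 20 bp. Other intronic sites had the same preference at a lower level, with 21.0% of 1283 pairs at 18 to 21 bp. A smaller peak at 37 to 42 bp held 13.4% of pairs at summits and 12.2% of the others. Of 312 intronic summits with at least 2 AATCGATA copies, 213 (68.3%, Wilson interval 62.9 to 73.2) had all of them on one strand. With at least 3 copies it was 132 of 189 (69.8%). A few copies can share a strand by chance, and other intronic copies were not compared. Relative to the host gene, 707 copies at summits read in the sense direction and 535 in the antisense direction. Copies in an array can share an origin, so pairs and copies are not independent.

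**Figure D5:**
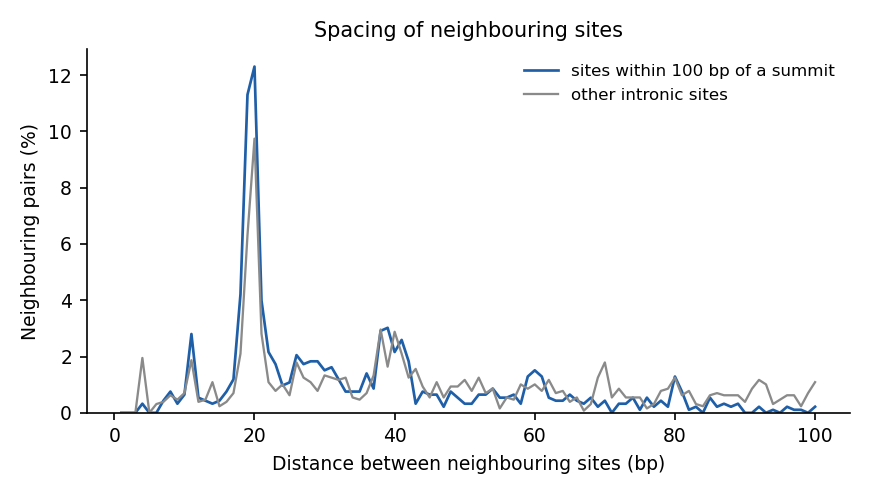
Percent of neighbouring site pairs (vertical) by the distance between their starts (horizontal, bp), for sites within 100 bp of an intronic summit and for other intronic sites. Both curves peak at 20 bp, at 12.3% and 9.74%.

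The sequence AGAGAG, searched on both strands, was rarer at intronic summits than at distal intergenic and promoter summits, while autosomal exonic summits had a share of 9.95%. It was within 100 bp of 59 of 598 intronic summits (9.87%), against 75 of 195 distal intergenic summits (38.5%, Fisher's exact adjusted p = 4.01e-17) and 137 of 560 promoter summits (24.5%, Fisher's exact adjusted p = 5.52e-11). The differences were -28.6 points (interval -35.9 to -21.5) and -14.6 points (interval -18.9 to -10.3). In windows 1000 bp away the sequence was found beside 6.19% of intronic summits on the right (McNemar's exact p = 0.0214) and 7.53% on the left (McNemar's exact p = 0.156), so a difference from the flank passed the test on one side. It too moved with base composition. Under 30% G+C it was in 1.37% of intronic, 0% of distal intergenic and 5.41% of promoter windows, so the direction against distal intergenic summits did not hold there. Between 30 and 40% the shares were 7.50%, 20.9% and 16.9%, and at 40% or more 38.1%, 64.1% and 40.9%, in the same order of classes.

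The 71 intronic summits with no site formed a smaller and lower group. Their median signal was 70.9, against 119 at the 527 with a site, and 62.0% against 81.2% were high in both replicates. The highest was in egrh-3, a gene of the early growth response zinc finger family, with a pooled signal of 326, 239 in replicate 1 and 86.6 in replicate 2. Next came nekl-1 at 308 and dys-1 at 287. The plexin gene plx-1, known for axon guidance and epidermal morphogenesis, followed at 270, with 184 in replicate 1 and 88.6 in replicate 2. Lower-case repeat bases made up 98.0% of the nekl-1 window and 100% of the dys-1 and plx-1 windows. AGAGAG was at 32.4% of the summits with no site, against 6.83% of those with one, and lower-case repeat bases made up a median of 26.4% of their windows against 76.1%. Their windows held a median of 2.00 sequences 1 base from a site, against 1.00 in the windows 1000 bp to either side. All 6-base words were compared after the values were seen, so the following are descriptions. ATCAAT was in 59.2% of these windows, against 19.7% of windows 1000 bp to either side, and TATTGA in 63.4% against 19.0%. CGTCTC was in 35.2% against 5.63%.

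The 598 summits lay in 391 host genes. Of 13778 autosomal protein-coding genes with intronic sequence away from gene starts, these hosts were 2.84%. Most hosts (279) held 1 summit, 62 held 2, 30 held 3 and 20 held 4 or more. The uncharacterised gene Y25C1A.7 held 9 summits in 6 introns, each with a site, at pooled signals from 61.0 to 360. The endonuclease gene eme-1, the cholecystokinin-type receptor gene ckr-2 and Y69A2AR.16 held 7 each, with highest signals of 512, 414 and 161. The kinase gene nekl-1 and W05F2.4 held 6 each. Hosts of 5 were ugt-31, rimb-1, Y73E7A.8, Y48G1A.1, BE0003N10.6, the N-glycanase gene png-1 and the ribosome biogenesis gene pro-3. Hosts of 4 included dys-1 and the dystrobrevin gene dyb-1, which encode parts of the dystrophin complex of muscle, as well as spe-15 (myosin VI), plx-1 and Y51H4A.13. The chromatin gene zfp-1 and pqn-41 also held 4 each, but only 1 and 0 of these had a site, and their highest signals were 133 and 96.6.

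Genes with more intronic sequence hosted a summit more often. The share of genes with a summit was 0.205% with up to 500 bases of such sequence and 1.14% with 501 to 1000. It was 2.63% with 1001 to 2000 and 6.21% with 2001 to 5000. It was 13.5% with 5001 to 10000 and 18.3% above 10000. Hosts had a median of 4220 bases, against 648 over all these genes. Gene lists are best read beside those amounts.

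Listed gene groups held 0 to 5 hosts each, to be read beside the shares by amount of intronic sequence above and the 2.84% of all eligible genes. Median eligible bases were 5547 in the synaptic and panneuronal list and 6358 in the axon guidance and adhesion list. They were 3188 for ion channels, 2292 for muscle genes, 1589 for homeobox genes and 591 for nuclear hormone receptors. Beside all genes in the range of each median, homeobox genes had 4.69% against 2.63% and nuclear hormone receptors 2.07% against 1.14%. Muscle genes had 6.45% against 6.21%. Synaptic and axon guidance genes had 8.70% and 2.27% against 13.5%, and ion channels 3.64% against 6.21%. A median does not match a list gene by gene, and no test was made. No listed share is shown to exceed or fall below that of genes with as much intronic sequence. The lists are short and leave out many genes of each kind. Of 23 synaptic and panneuronal genes with eligible introns 2 (8.70%) were hosts, the vesicle GTPase gene rab-3 (pooled signal 105, 85.6 in replicate 1 and 18.5 in replicate 2) and the synaptojanin gene unc-26 (62.3, 32.5 and 26.2). The list does not hold rimb-1, whose 5 summits are given above. Of 44 axon guidance and adhesion genes 1 (2.27%) was a host, plx-1. Of 55 ion channel genes 2 (3.64%) were, trp-2 (161) and the potassium channel gene slo-1 (158). Channel genes outside this list, named after their values were seen, also held summits, such as egas-3 (239), lgc-46 (164) and twk-46 (155). Of 31 muscle genes 2 (6.45%) were, dys-1 and dyb-1 (399). Homeobox genes gave 3 of 64 (4.69%), namely ttx-1 (136), lin-39 (62.2) and ceh-100 (57.4), and nuclear hormone receptors gave 5 of 242 (2.07%), led by nhr-119 (143), nhr-95 (123) and nhr-41 (63.5). Genes linked to CEH-28 or to the M4 neuron gave 0 of 5 eligible genes, a number too small to read.

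Chemoreceptor genes stood at 0 of 1217, where a count of 0 allows a share of up to 0.247%. Their introns were short, with a median of 392 eligible bases. That limit is below the 2.84% over all genes but not below the 0.205% of genes with up to 500 such bases. The count thus does not set chemoreceptor genes apart from others with as little intronic sequence. Ribosomal protein genes had 0 of 20, and genes named for collagens, or for dumpy, squat, roller or blister mutants, 3 of 87, namely col-45 (132), col-40 (126) and bli-4 (61.8). UDP-glucuronosyltransferase and cytochrome P450 genes gave 2 of 129, ugt-31 and cyp-42A1 (59.0). Chromatin and dosage compensation genes gave 2 of 37, met-1 (69.4) and nurf-1 (64.3). Median eligible bases were 242 in the collagen list, 569 in the UDP-glucuronosyltransferase and cytochrome P450 list and 1410 in the chromatin list. Their shares were 3.45%, 1.55% and 5.41%, against 0.205%, 1.14% and 2.63% of all genes in the ranges of those medians. The lists differ in the length and chromosome of their genes, and no test was made of them.

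The introns with a summit had a median length of 857 bp, from 46 to 17822 bp, and 10.4% of summits were in introns under 200 bp. Of 64588 exon-free stretches in protein-coding genes away from gene starts, 496 (0.768%) held a summit, 412 of them 1, 68 of them 2 and 16 of them 3 or more. Stretches with a summit had a median length of 776 bp, against 106 bp over all stretches. They were not longer than the stretch of 1023 bp in which a typical eligible base lay. Per megabase of sequence, summits were densest in stretches of 501 to 1000 bp, at 37.5, and least dense above 2000 bp, at 13.5, and sites followed in part, at 506 and 283 per megabase.

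Within the intron, summits were spread along the length. From the donor to the acceptor end, 4 equal parts of the intron held 20.1%, 25.3%, 24.9% and 29.8% of summits. A splice site lay within 100 bp of 37.0% of them. First introns held 93 summits (15.6%, Wilson interval 12.9 to 18.7), a share that the window around gene starts lowers by construction. Last introns held 133 (22.2%). The splice site and last intron shares are given without a value over all eligible intronic sequence, so neither can be read as high or low. The median distance to the start of the host gene was 4059 bp and to the nearest start of any protein-coding gene 2910 bp. In 15 cases the summit also lay in a nested non-coding gene, such as an antisense RNA in the chromatin remodeller gene let-526 (signal 245) and a small nucleolar RNA in cfim-2 (79.6).

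Summits were unevenly placed along and between the autosomes. Chromosome I held 202, III held 161, IV held 95, V held 76 and II held 64. Per megabase of eligible intronic sequence this was 39.2 on I and 35.6 on III, against 19.5 on IV, 16.5 on II and 15.7 on V. Sites were denser on the same chromosomes, at 521 and 504 per megabase on I and III, against 330 to 360 on the others. Per 1000 sites there were 75.2 summits on I and 70.6 on III, against 47.4 to 54.3 on the others. The outer parts of the chromosomes, the first and last of 3 equal lengths, held 550 of 598 summits (92.0%), against 73.3% of the eligible sequence. The same outer parts held 73.8% of distal intergenic and 72.1% of promoter summits.

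Members near the edge of the promoter window show where the position rule fell. The nearest inside the set were in cutl-10 (4 bp from the edge, signal 68.4), txdc-17 (15 bp, 178) and Y54F10BM.3 (27 bp, 287). The nearest intronic summits left out were in Y55F3AM.9 (9 bp, 186), alkb-1 (11 bp, 73.0) and sre-38 (17 bp, 70.8). All 6 of these had at least 1 site.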

How the data were processed

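Peaks from eGFP-CEH-28 ChIP-seq in whole L4 larvae were deposited for each of 2 replicates, for both pooled, and as a thresholded list, on ce11. The signal values are those deposited by the authors, with no stated scale. The deposited −log10 q values were 3.76 at all 1739 thresholded summits and ranked nothing. How reads were aligned and peaks called is not given in the sources used here, and depth is unknown, since the lists hold no counts. Genes came from Ensembl release 115 (WBcel235, the same assembly as ce11) and repeats from lower case in the RefSeq genome.

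Shares were compared between classes by Fisher's exact test (two-sided, Benjamini-Hochberg over 8 tests, threshold 0.05) and between summit and flank by the exact McNemar test. Intervals are 95% Wilson intervals, those on differences by Newcombe's method. They cover counting error only and take summits as independent. The tests were tested on simulated data. The members, lists and measures were chosen with earlier results of these data known, and no list was tested. Named genes were the hosts of the 20 highest summits, hosts of 4 or more, up to 3 per list for 12 lists, those at the window edge and those with a printed sequence. The site clusters without a summit, the highest summits without a site, nested genes and G+C ranges were chosen after values were seen. 1 intronic summit lay outside the region it was listed with. Alternatives covered each replicate alone, other windows, thresholds, exons, overlaps and 1 summit per region. The software was scipy 1.17.1, pandas 2.3.3, numpy 2.4.6 and matplotlib 3.10.9 under Python 3.11.15.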

Additional observations from a re-analysis of the deposited data

How the results depend on the processing

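Of 94 recomputed values 75 kept their direction and side of the threshold or moved by less than the replicates differ, and 0 were reversed. With replicate 1 or replicate 2 alone, the difference from distal intergenic summits in the share high in both replicates was 9.40 and 12.9 points, the share with a site was 82.2 to 88.8%, and the share of clusters of 4 or more sites with a summit was 74.2 to 76.8% (74.8% in the list). With only the upper 50% of the list, 370 intronic summits were left, 93.8% had a site, and 67.7% of such clusters held a summit. The differences from distal intergenic summits were then 6.43 points above the median signal of that upper part and 3.75 points high in both replicates. The wider promoter window gave 7.86 points above the median. With 1 summit per region, 62.6% of clusters held a summit, and with windows of 50 bp either side 82.1% of intronic summits had a site. The cause of these changes was not tested, beyond the smaller lists and windows that the settings make. Depth is unknown, so nothing here shows that a weaker intronic region is unbound.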
